A study of Mus musculus with 6 samples.

Results

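The enzymes that build and later dismantle the outer layers of the epidermis were examined as a set of 10 genes, namely the transglutaminases Tgm1, Tgm3 and Tgm5, the caspase Casp14, the kallikreins Klk5 and Klk7, the aspartic protease Asprv1, the membrane serine protease St14, the protease inhibitor Spink5 and the adhesion protein Cdsn. The genes were taken by name, and every probe set that the platform annotation gives to one of them alone was used, which yielded 12 probe sets of 45037 on the array and 10 genes of 18193. Tgm3 and Casp14 were read by 2 probe sets each and the others by 1. Where a gene had several, its brightest probe set, averaged over all 6 arrays, stands for it.

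RNA came from the back skin of mouse embryos at E15.5 on a mixed C57BL6/129 background and was hybridised to Affymetrix MOE430 2.0 arrays. The 3 knockout samples were Fzd6 -/-, without an intact copy of Frizzled 6, a receptor of planar cell polarity. The 3 control samples were Fzd6 +/-, so that both groups carried a mutant allele and neither was wild type. The labels name the samples biological replicates without saying from how many embryos each came, so p-values measure the spread between these samples. Whole skin was used, and in such bulk RNA fewer cells of a type and less RNA per cell cannot be told apart.

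As keratinocytes move up through the epidermis, their plasma membrane is replaced by a cornified envelope, a sheet of proteins joined by transglutaminases. Proteases act in a cascade on both sides of this step. St14 and Asprv1 take part in the maturation of filaggrin, as does Casp14, while Klk5 and Klk7 cut the corneodesmosomes that hold the dead cells together, among them Cdsn. Spink5 encodes LEKTI, the inhibitor that holds these kallikreins in check.

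Of the 10 genes, 9 had a higher mean in knockout than in control skin, where 52.4% of all 18193 genes did. The median difference, knockout minus control, was 0.29 on the log2 scale, against 0.0070 over all genes, and it was 0.12 without knockout 1 and 0.45 without knockout 3. None passed an adjusted p of 0.05 in limma, where 0.00% of the 45037 probe sets passed, and the smallest adjusted p among the 10 genes was 0.909. Knockout and control values were fully apart for 4 genes, Spink5, Klk5, Asprv1 and Tgm5, all higher in the knockout, a pattern found in 6.99% of all genes. At an unadjusted limma p under 0.05, 3 of these were higher (Klk5, Asprv1 and Spink5), against 3.17% of all genes. With the replicate number as a block, the count was 5, with Tgm1 and St14 added, against 6.42% of all genes. In the comparison without the block it was 0 without control 1 or without control 2, and 5 without knockout 3. Without replicate 1 of both groups it was 1 (Klk5). The knockout was the higher within all 3 replicate numbers for 5 genes (Spink5, Klk5, Asprv1, Tgm5 and St14), against 19.1% of all genes.

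The array of knockout 1 held the highest value of 9 of the 10 genes, the exception being Cdsn, against 23.4% of all genes. Without it, 7 of the 10 genes still had a higher mean in the knockout, against 56.0% of all genes. The groups then did not overlap for 5 genes, the same 4 and Cdsn, against 12.5% of all genes.

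**Figure D1:**
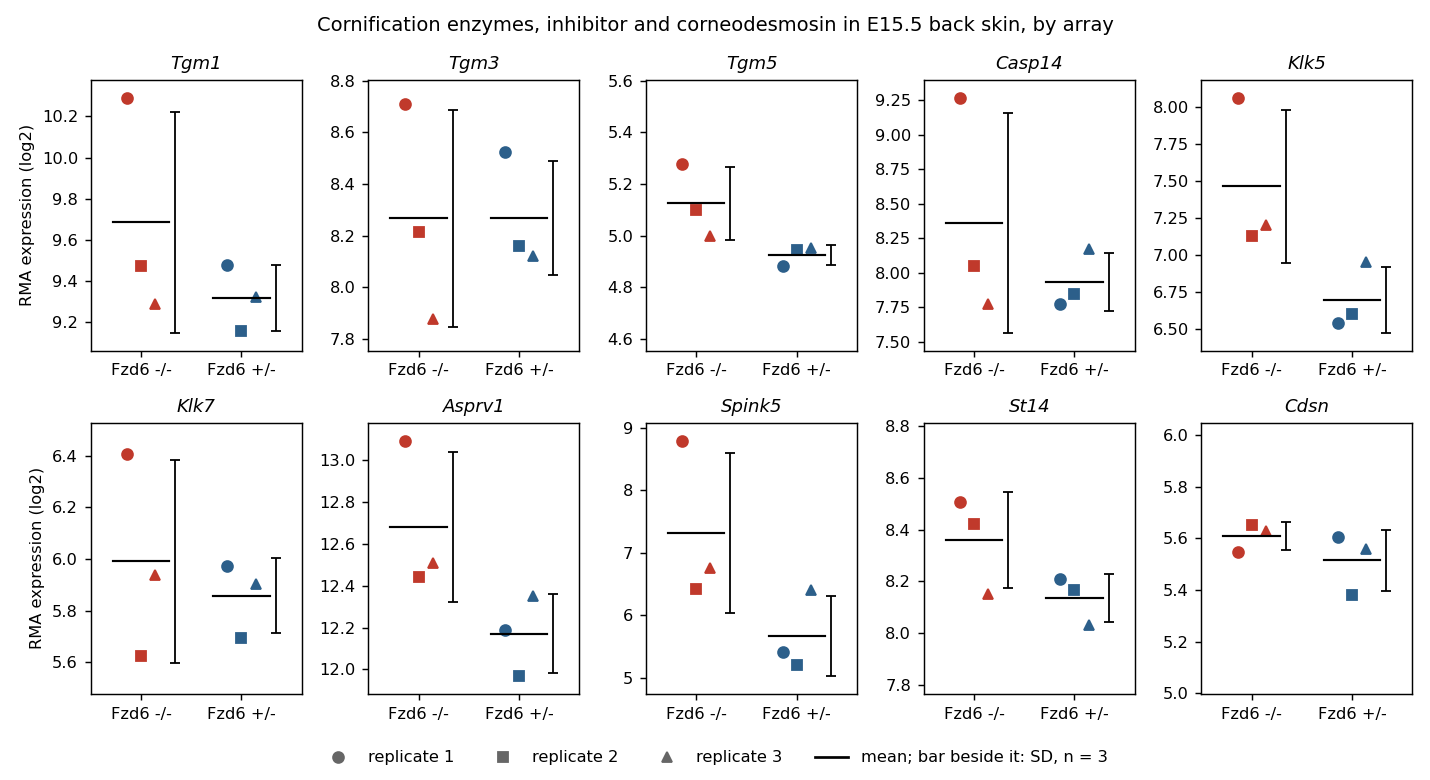
RMA expression (log2) of the 10 genes in each array, Fzd6 -/- left and Fzd6 +/- right, with symbols for the replicate number, lines for the mean, bars for the SD (n = 3) and vertical scales that differ between panels. Replicate 1 of the knockout is the highest point in every panel except that of Cdsn.

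Spink5, the inhibitor, had the largest difference of the 10 genes. It measured 8.79, 6.43 and 6.75 in knockouts 1 to 3, against 5.41, 5.20 and 6.40 in controls 1 to 3 (log2). All 3 knockouts lay above all 3 controls, though knockout 2 and control 3 were only a little apart. The means were 7.32 ± 1.28 in knockout and 5.67 ± 0.64 in control skin (SD, n = 3 each), 3.14-fold apart. On the log2 scale the difference was 1.65, with a 95% interval of 0.22 to 3.08 (limma adjusted p = 0.909). Within replicate numbers 1, 2 and 3 the differences were 3.38, 1.23 and 0.35. Without knockout 1 the difference was 0.92 (0.16 to 1.68), and without replicate 1 of both groups 0.79 (−0.042 to 1.62).

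Kallikreins are secreted serine proteases encoded side by side in a cluster on mouse chromosome 7, and Klk5, which starts the cascade, can activate Klk7, the chymotrypsin-like member. Klk5 was at 8.06, 7.13 and 7.20 in the knockouts and at 6.54, 6.60 and 6.95 in the controls. The groups did not overlap, and all 3 replicate numbers gave a higher value in the knockout, by 1.51, 0.53 and 0.25. The difference was 0.76 (0.18 to 1.34, limma adjusted p = 0.909), or 1.70-fold, and 0.47 (0.15 to 0.79) without knockout 1. Klk7 was at 6.41, 5.63 and 5.94 in the knockouts and at 5.98, 5.69 and 5.91 in the controls. Here the groups overlapped, with knockout 2 the lowest of all 6 arrays, and the difference was 0.13 (−0.31 to 0.58). Without knockout 1 it was −0.075 (−0.39 to 0.24). Whether Klk5 and Klk7 differ from each other in response was not tested.

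The cluster was read in gene order from Klk13 to Klk5, while Klk14 and other kallikreins were not analysed here. All 9 genes read, Klk5 and Klk7 among them, had a higher mean in the knockout, against 52.4% of all genes. Klk11 differed by 0.75 (0.27 to 1.23), Klk13 by 0.53 (0.0033 to 1.06) and Klk10 by 0.51 (0.056 to 0.97), and for these 3 as for Klk5 the groups did not overlap. Klk8, a protease of the upper epidermis, differed by 0.31 (−0.081 to 0.70) and Klk6, the neighbour of Klk5 and Klk7 between them, by 0.081 (−0.099 to 0.26). Groups did not overlap in 6.99% of all genes. At an unadjusted limma p under 0.05 there were 4 of the 9 (all genes 3.17%), and 5 with the replicate block (all genes 6.42%), and none passed the adjusted threshold. The 4 became 1 without control 1 or without control 2, and 3 without knockout 1. Without knockout 1, 8 of the 9 means were higher in the knockout, against 56.0% of all genes.

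**Figure D2:**
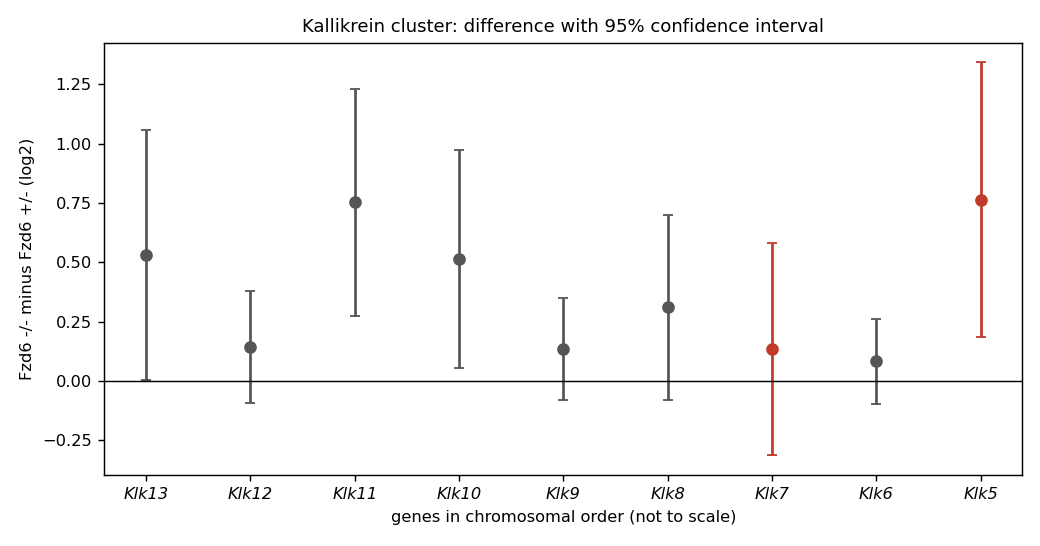
Difference between knockout and control skin (log2, vertical axis) with its 95% confidence interval for 9 kallikrein genes in the order of the cluster on the chromosome, Klk5 and Klk7 in red. All points lie above 0, and the intervals of Klk13, Klk11, Klk10 and Klk5 exclude it.

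The stretches of 120 bases ahead of an annotated transcript start of 4 genes are shown because Klk5 and Klk7 lie in the same cluster, because Asprv1 was among the genes whose groups did not overlap, and because the mean of Tgm3 was nearly equal in both groups. They are from RefSeq (GRCm38.p6), 5′ to 3′ on the strand of the gene, and lie at chr7:43842149-43842268 (plus strand) for Klk5, chr7:43811174-43811293 (plus) for Klk7, chr6:86628054-86628173 (plus) for Asprv1 and chr2:130012220-130012339 (plus) for Tgm3. For Klk7 and Asprv1 this transcript start is the outer start of the gene, while for Klk5 it lies 8112 bases and for Tgm3 24546 bases inside the annotated span of the gene. Capitals mark a match to one of 4 short motifs.
Klk5: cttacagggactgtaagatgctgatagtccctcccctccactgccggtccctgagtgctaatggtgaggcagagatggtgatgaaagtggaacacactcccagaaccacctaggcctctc
Klk7: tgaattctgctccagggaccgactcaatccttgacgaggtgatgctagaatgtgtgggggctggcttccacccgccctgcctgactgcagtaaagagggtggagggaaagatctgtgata
Asprv1: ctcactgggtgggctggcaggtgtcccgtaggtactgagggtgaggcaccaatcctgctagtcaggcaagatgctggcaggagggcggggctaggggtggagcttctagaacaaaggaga
Tgm3: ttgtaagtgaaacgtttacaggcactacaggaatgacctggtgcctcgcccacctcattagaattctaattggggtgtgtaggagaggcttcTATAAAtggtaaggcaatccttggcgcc

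The motifs searched on both strands, over 250 bases ahead of these transcript starts, were TGANTCA (AP-1), AACCNGTT (Grainyhead factors), TATAAA (the TATA box) and TTGCNNAA (C/EBP factors). The counts cover windows of 8 of the 10 genes, all but Spink5 and St14, which are not analysed here. TATAAA was present in 1 gene, Tgm3, at position −28 from the transcript start inside the gene, where 12.4% of 32817 mouse promoter windows of that length hold it. TTGCNNAA was present in 2, Tgm3 at position −160 from the same start and Cdsn ahead of its inner start, where 9.57% of windows hold it. TGANTCA and AACCNGTT were found in none of the 8, against 6.75% and 1.78% of windows. A match is a description of these letters, and the lack of one says only that they are not in these windows.

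Asprv1, the skin aspartic protease that cuts the linker of profilaggrin, measured 13.09, 12.44 and 12.51 in the knockouts, against 12.19, 11.97 and 12.35 in the controls. All 3 knockouts lay above all 3 controls. The means were 12.68 ± 0.36 and 12.17 ± 0.19 (SD, n = 3 each) in knockout and control skin, a difference of 0.51 (0.077 to 0.94, limma adjusted p = 0.909), or 1.42-fold. Within numbers 1 to 3 it was 0.90, 0.47 and 0.16, and without knockout 1 it was 0.30 (0.012 to 0.60). Without replicate 1 of both groups the difference was 0.32 (−0.0084 to 0.64).

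St14, or matriptase, is a protease of the cell surface needed for the epidermal barrier. It was at 8.51, 8.42 and 8.15 in the knockouts and at 8.21, 8.17 and 8.03 in the controls. The groups overlapped only in that knockout 3 lay below controls 1 and 2, and within each replicate number the knockout was the higher. The difference was 0.22 (−0.041 to 0.49) without the block and 0.22 (0.041 to 0.40) with it (adjusted p = 0.361, limma).

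Among the genes that work with St14, 8 of 9 measured had a higher mean in the knockout (all genes 52.4%), with a median difference of 0.13. Without knockout 1 these were 6 of 9 (all genes 56.0%) and 0.066, and the median was 0.064 without control 3. At an unadjusted limma p under 0.05 there was 1 gene, higher in the knockout, as were 3.17% of all genes. Without knockout 3 there were 3. Scnn1a, a subunit of the epithelial sodium channel, had the smallest p, at 7.71, 7.69 and 7.63 in the knockouts against 7.32, 7.39 and 7.48 in the controls, a difference of 0.28 (0.091 to 0.46) with groups that did not overlap. Prss8, or prostasin, the protease that acts with matriptase, differed by 0.15 (−0.29 to 0.58). The inhibitor of matriptase Spint1 differed by 0.13 (−0.25 to 0.51), the channel subunit Scnn1b by 0.14 (−0.076 to 0.37) and Mst1, whose product is a growth factor related to Hgf, by 0.25 (−0.20 to 0.69).

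Casp14 encodes a caspase of the cornifying layer that takes part in the breakdown of filaggrin rather than in cell death. The brighter probe set of Casp14 read 9.27, 8.05 and 7.77 in the knockouts and 7.77, 7.85 and 8.17 in the controls. Knockout 1 lay above all controls, knockout 2 among them and knockout 3 just below the lowest of them. The difference was 0.43 (−0.40 to 1.26) with all arrays and −0.020 (−0.36 to 0.32) without knockout 1. The dimmer probe set, of a kind whose probes can also match other transcripts, differed by 0.089 (−0.12 to 0.30).

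Differences between the transglutaminases themselves were not tested. Tgm1, which anchors the envelope at the membrane of differentiating keratinocytes, was at 10.29, 9.47 and 9.29 in the knockouts and at 9.48, 9.16 and 9.32 in the controls. Knockout 1 lay well above the other 5 arrays, which overlapped. The difference was 0.37 (−0.21 to 0.94) with all arrays, 0.37 (0.014 to 0.72) with the replicate block (adjusted p = 0.401, limma) and 0.061 (−0.23 to 0.35) without knockout 1.

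Tgm5, another transglutaminase of the upper epidermis, was at 5.28, 5.10 and 4.997 in the knockouts and at 4.88, 4.946 and 4.953 in the controls. The groups did not overlap, by a narrow margin, and the difference was 0.20 (−0.021 to 0.42). The mean level of Tgm5, 5.03, lay below the median of 6.02 over all probe sets. Tgm3, which crosslinks envelope and hair proteins, was at 8.71, 8.21 and 7.88 in the knockouts and at 8.52, 8.16 and 8.12 in the controls. Both groups had their highest value in replicate 1, and the means were nearly equal, at 8.27 ± 0.42 in the knockout and 8.27 ± 0.22 in the control. The difference was −0.0012 (−0.50 to 0.50), and 0.013 and 0.029, with the opposite sign, after centring of the arrays or a further quantile normalisation. The dimmer probe set of Tgm3 gave −0.00026 (−0.28 to 0.28). The interval of the brighter one reaches 0.50 in either direction, so these data do not show that Tgm3 was equal in both groups.

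The 5 other transglutaminase genes measured had a median difference of 0.059, with none past the adjusted threshold. In the knockout 4 were higher (all genes 52.4%) and 1 lower. The median was 0.15 without knockout 1, 0.015 without knockout 3 and 0.091 without control 2. The erythrocyte protein Epb42, which has no enzyme activity, differed by 0.13 (−0.078 to 0.34), the prostate enzyme Tgm4 by 0.12 (−0.19 to 0.43) and Tgm6 by 0.059 (−0.13 to 0.25). Tissue transglutaminase, Tgm2, differed by 0.030 (−0.60 to 0.66).

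Cdsn, or corneodesmosin, holds corneocytes together until kallikreins cut it. It was at 5.55, 5.65 and 5.63 in the knockouts and at 5.61, 5.38 and 5.56 in the controls. It was the only one of the 10 genes whose highest value was not in knockout 1, and the groups overlapped. The difference was 0.094 (−0.12 to 0.30) with all arrays and 0.13 (−0.11 to 0.36) without knockout 1.

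**Figure D3:**
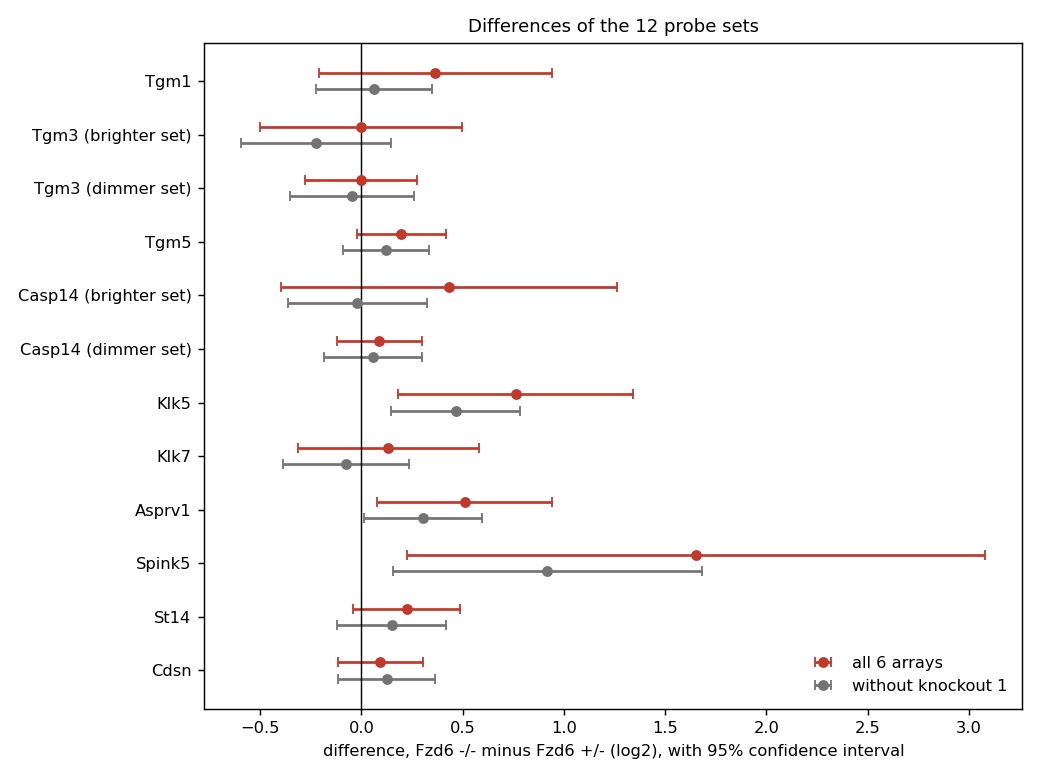
Differences between knockout and control skin (log2, horizontal axis) with 95% confidence intervals from limma for the 12 probe sets, with all 6 arrays in red and without knockout 1 in grey. The intervals of Klk5, Asprv1 and Spink5 exclude 0 in both; the points of Casp14 (brighter set) and Klk7 move to the other side of 0 without knockout 1.

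The profile over the 6 arrays was shared by most of the genes. The correlation of a gene with the mean of the other 9, each centred on its own mean, was 0.97 for Asprv1, 0.95 for Klk5 and Tgm1, 0.94 for Spink5, 0.93 for Casp14 and 0.92 for Tgm5, and lower for Klk7 (0.80), St14 (0.71), Tgm3 (0.55) and Cdsn (0.19). These values rest on 6 arrays, of which knockout 1 sets most of the range, and describe these arrays only. The mean of the 10 centred genes was 0.73, −0.015 and −0.057 in knockouts 1 to 3, against −0.21, −0.36 and −0.092 in controls 1 to 3. Among genes above the median level of the array, the profiles most like this mean over the 6 arrays were those of Cwh43 (r = 0.998), the phospholipase Pla2g4e (0.997), the claudin Cldn23 (0.997), the co-chaperone Fkbp5 (0.997) and the membrane protein Tmem54 (0.995). Of 11842 genes compared in this way, 428 had an r above 0.9. Cwh43 was at 8.90, 7.96 and 7.85 in the knockouts and at 7.60, 7.40 and 7.80 in the controls.

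Among markers of the cell types of skin, the means of the suprabasal, periderm and melanocyte markers were also highest in knockout 1. So was that of the basal markers, by a narrow margin over knockout 2 (0.200 against 0.197). Several suprabasal markers, such as Ivl and Lor, also stand in the list of transglutaminase substrates given below, as does the periderm marker Sprr3. The periderm marker Grhl3 and the basal marker Trp63 also stand in the list of regulators. All 10 suprabasal markers had a higher mean in the knockout. This count and those of the other marker lists stand beside 52.4% of all genes with a higher mean. The mean of the suprabasal markers, each gene centred over the 6 arrays, was 0.54, 0.11 and 0.065 in the knockouts. In the controls it was −0.32, −0.27 and −0.13. Of the periderm markers 9 of 9 were higher, with means of 0.86, 0.19 and −0.12 in the knockouts against −0.27, −0.39 and −0.27 in the controls. Basal markers, 5 of 7 higher, lay between −0.20 and 0.20 in the knockouts and between −0.37 and 0.15 in the controls.

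Dermal and vascular markers ran low in replicate 1 of both groups. Endothelial markers, 9 of 10 lower, averaged −0.91 in knockout 1 and −0.38 in control 1, and between 0.28 and 0.36 in the other 4 arrays. Fibroblast markers, 7 of 10 lower, averaged −0.49 in knockout 1 and −0.26 in control 1, and between 0.12 and 0.24 elsewhere. Mast cell markers, 6 of 6 higher, lay between 0.26 and 0.41 in the knockouts and between −0.54 and 0.083 in the controls, and melanocyte markers, also 6 of 6 higher, between −0.066 and 0.41 in the knockouts and between −0.17 and −0.075 in the controls. Skeletal muscle (4 of 10 higher), leukocyte (3 of 6) and neural markers (1 of 4) overlapped between the groups. The part of these shifts in the differences of the 10 genes was not tested.

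**Figure D4:**
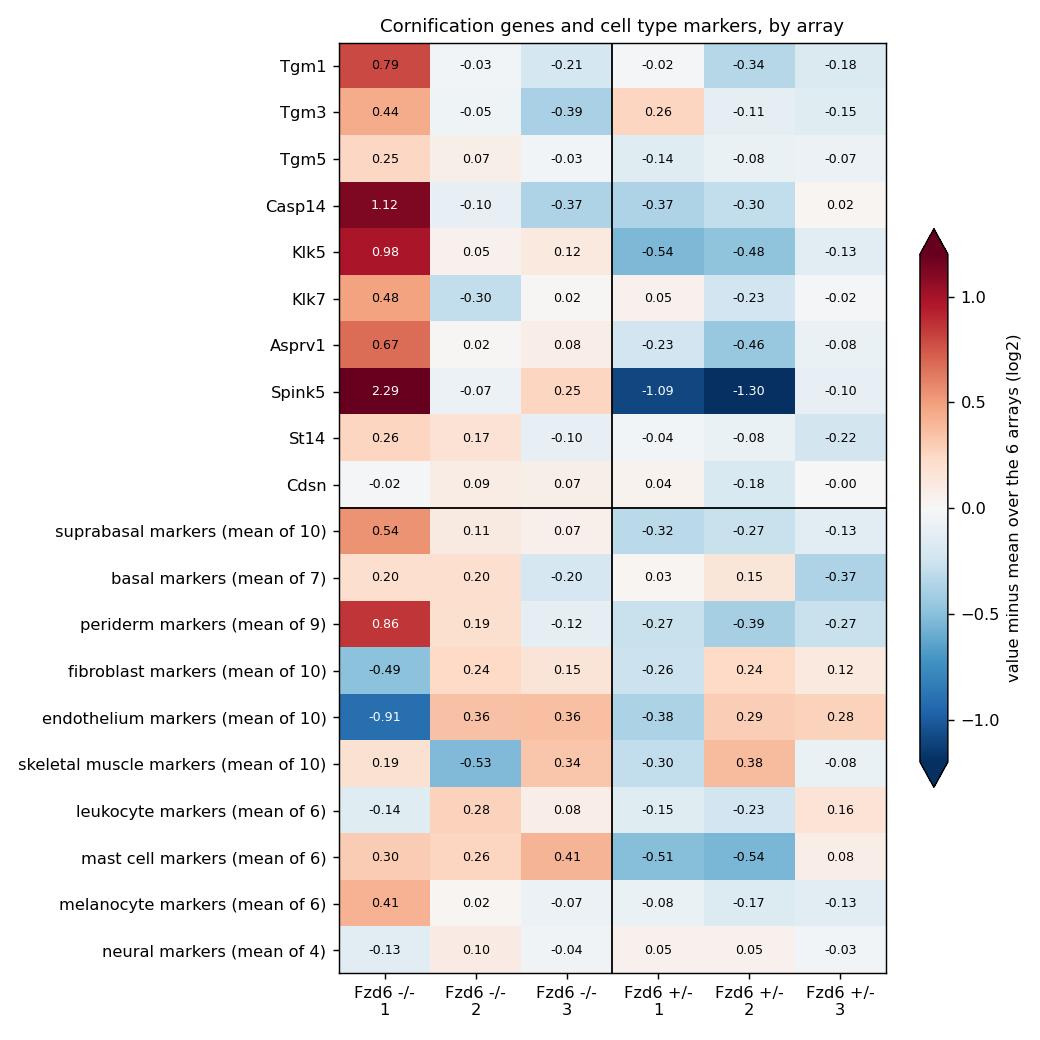
Values of the 10 genes (upper block) and means of cell type marker lists (lower block) in each array, each gene centred on its mean over the 6 arrays (log2, colour and number; colours end at 1.2 in either direction). Knockout 1 is the reddest column for the genes and holds the lowest endothelial (−0.91) and fibroblast (−0.49) means.

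The lists around these enzymes are given as counts, with none of their genes past the adjusted threshold. Their counts at an unadjusted p under 0.05 stand beside shares over all genes of 3.17%, higher in the knockout, without the replicate block and 6.42% with it. Counts of higher means stand beside shares of 52.4% with all arrays and 56.0% without knockout 1. Of 41 measured transglutaminase substrates and envelope proteins, 37 had a higher mean in the knockout, with a median difference of 0.23, and 15 had an unadjusted limma p under 0.05, all higher. The median was 0.145 without knockout 1, when 34 were higher. The 15 became 10 without control 1 and 19 with the replicate block. The smallest p belonged to the early envelope protein Ivl, or involucrin (1.02, 0.43 to 1.61, and 0.41 in its other probe set), to Cnfn, or cornifelin (1.25, 0.48 to 2.01), and to Lce3c, a late envelope protein, at 11.02, 9.56 and 9.85 in the knockouts against 8.50, 8.27 and 9.22 in the controls (1.48, 0.56 to 2.41). The plakins that start the envelope had smaller differences, of 0.37 (−0.091 to 0.84) for Evpl and 0.33 (−0.17 to 0.82) for Ppl, and their groups overlapped. Flg, the filaggrin gene, was read at a mean of 2.72, near the lowest value on the arrays (2.39), and differed by 0.056 (−0.15 to 0.26).

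Of 29 other epidermal proteases, 27 had a higher mean, with a median of 0.13, and 5 had an unadjusted p under 0.05, all higher. The median was 0.089 without knockout 1, when 25 were higher. The 5 became 2 without control 1 or without control 2, 3 without knockout 1, 8 without knockout 3 and 8 with the replicate block. The membrane-anchored protease Prss27 was at 7.35, 6.66 and 6.65 in the knockouts against 6.08, 5.98 and 6.36 in the controls, a difference of 0.75 (0.28 to 1.22), and no array of one group overlapped the other. Klk11 and Klk10, given above, had the next smallest p. The proprotein convertase Furin differed by 0.070 (−0.54 to 0.68).

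Of 20 other protease inhibitors, 16 had a higher mean, with a median of 0.20, and 5 had an unadjusted p under 0.05, all higher. The 5 became 1 without control 2, 2 without control 1 and 3 without knockout 1 or without knockout 3. With the replicate block 10 were higher and 1 lower, Timp3, a metalloprotease inhibitor named after its value was seen. The cystatin Cst6, which inhibits cathepsins and legumain in the upper epidermis, was at 7.97, 7.05 and 7.09 in the knockouts against 6.52, 6.47 and 6.88 in the controls (0.75, 0.16 to 1.33). The serpin Serpinb2 differed by 0.50 (0.11 to 0.90) and the alpha-2-macroglobulin relative A2ml1 by 0.24 (0.057 to 0.42). A2ml1 was dim, at a mean of 3.885 against a median level of 6.02 over all probe sets. Slpi, the secretory leukocyte protease inhibitor, differed by 0.12 (−0.14 to 0.39).

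Of 12 other genes of corneodesmosomes and desmosomes, 9 had a higher mean, with a median of 0.25, and none had an unadjusted p under 0.05, against 5 with the replicate block, 4 without knockout 3 and 1 without control 2. Without knockout 1 the median was 0.053, with 8 higher, and it was 0.149 without control 3 and 0.393 without knockout 3. Desmocollin 1, Dsc1, which lies in corneodesmosomes, was at 12.09, 11.41 and 11.29 in the knockouts against 11.18, 11.18 and 11.15 in the controls (0.43, −0.036 to 0.89, and 0.11 in its other probe set), without overlap. The plaque proteins Pkp1 (0.30, −0.0057 to 0.60) and Jup (0.24, −0.10 to 0.59) followed, and Dsg1a, the desmoglein of the upper epidermis, differed by 0.26 (−0.49 to 1.01).

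Of 20 regulators of late differentiation, 16 had a higher mean, with a median of 0.13, and 3 had an unadjusted p under 0.05, all higher. The median was 0.079 without knockout 1, when 13 were higher, and 0.231 without knockout 3. The 3 became 1 without control 1, 2 without knockout 1 and 6 with the replicate block. Klf4, a factor required for the epidermal barrier, was at 11.81, 11.78 and 11.58 in the knockouts against 11.12, 11.53 and 11.44 in the controls (0.36, 0.067 to 0.66), and its other probe set differed by 0.33. The homeodomain protein Hopx differed by 0.75 (0.13 to 1.38), with 0.78 in its other probe set. Ehf, an epithelial Ets factor, differed by 1.26 (0.21 to 2.31), but its other 3 probe sets gave 0.057 to 0.38. Its brightest probe set was dim, at a mean of 4.298 against a median level of 6.02 over all probe sets. Grhl3, the Grainyhead factor that controls Tgm1 in mouse epidermis, differed by 0.0027 (−0.52 to 0.53).

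**Figure D5:**
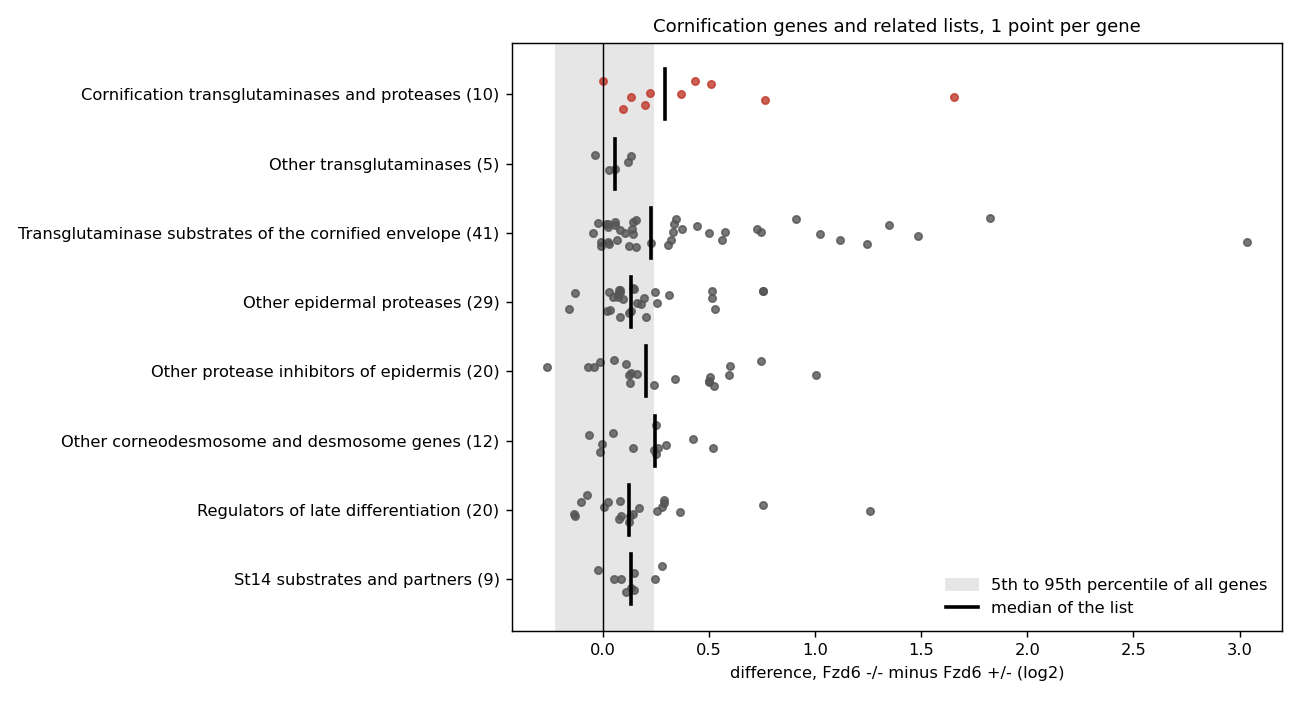
Difference between knockout and control skin (log2, horizontal axis) for each gene of the 10 (red, top row) and of 7 related lists (grey), with the number of measured genes in brackets and the median as a black bar. The shaded band holds the middle of all 18193 genes, from −0.22 (5th percentile) to 0.24 (95th percentile); all 8 medians lie above 0.

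Fzd6 itself, read as a check of the labels, was lower in the knockout, without overlap of the groups, in 2 of its 3 probe sets. The brightest read 9.07, 9.01 and 8.71 in the knockouts against 9.50, 9.51 and 9.11 in the controls (−0.44, −0.78 to −0.11). The probe set whose groups overlapped differed by −0.0097 (−0.21 to 0.19). None of the 3 passed the adjusted threshold. Where the probes of Fzd6 lie relative to the deleted part was not analysed here.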

How the data were processed

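The authors deposited log2 expression values made by RMA from Affymetrix MOE430 2.0 arrays, per the submitters' processing notes, which give no version. The log base is not written and was read from the range of the values (2.39 to 14.8, array medians 5.99 to 6.03). RMA equalises the arrays, so a shift of most genes would not show, and scanner files were not used here, so signal over background is unknown. The 64 control probe sets of 45101 were left out and no filter was applied. Probe sets with 1 symbol (34945 of 45037, with 932 carrying several and 9160 none) were named by the platform annotation, updated to GRCm38.p6 gene symbols where matched (34741).

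All 45037 probe sets entered a single model in limma 3.58.1 under R 4.3.3 (functions lmFit, then eBayes; 6 arrays, no covariates, two-sided, Benjamini-Hochberg adjustment over all probe sets, threshold 0.05, 95% intervals). The script was tested on simulated data. Alternatives are given in the closing section. The genes, lists and tests were chosen with earlier results of these data known. Of 148 genes in 7 related lists 131 were measured and 17 are not analysed here. Named beside the 10 genes were the 3 with the smallest p in each list, 14 genes chosen for their function, and the 5 genes most like the mean profile. Klk14 was one of the 14 and is not analysed here. Timp3 and Flg were named outside this rule. Related lists share some genes.

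Samples of the same replicate number deviated together from their group means (correlations 0.568, 0.359 and 0.124), each above the criterion of 0.1 for paired numbers. This rests on the data and not the labels, and knockout 3 went more closely with control 2 (0.42) than with control 3. Reported values come from the model without pairing. Those with the replicate number as a block are given where they move a call of the 10 genes or a count. For other single genes only the values without the block are given. The block moved some of their intervals to above 0, among them those of Evpl, Dsc1, Pkp1 and Klk8. Figures used matplotlib 3.10.9 in Python 3.11.15.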

Additional observations from a re-analysis of the deposited data

How the results depend on the processing

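With 3 arrays per group, wide intervals limit each difference. No alternative brought any of the 10 genes past the adjusted threshold, the replicate block included, which at an unadjusted p under 0.05 added Tgm1 and St14. Over all probe sets the block gave 3 past the threshold, against 0 without it. The median of the 10 genes stayed within 0.12 to 0.45 over all 16 alternatives, lowest without knockout 1, and was 0.155 with array weights and also without replicate 1 of both groups, an alternative chosen after seeing the data. Leaving out dim probe sets, which drops Tgm5, Klk7 and Cdsn, gave 0.43, and medians of 0.53 for transglutaminase substrates and 0.50 for protease inhibitors, over fewer genes. The median of the other transglutaminases then fell below 0, to −0.0042, over the 2 genes left.

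Signs turned for 3 genes. Tgm3 was at 0.029 after quantile normalisation and 0.0134 after centring. Leaving out 1 array gave Tgm3 a range of −0.224 to 0.194, Casp14 of −0.0196 to 0.727 and Klk7 of −0.0751 to 0.316, with Tgm3 above 0 without control 1, knockout 2 or knockout 3. Without replicate 1 of both groups Casp14 was at −0.0974 and Klk7 at −0.0167. For Klk7 and Casp14 it was knockout 1 that turned the sign, and the cause was not tested. The other 7 genes kept their sign under all alternatives that measured them.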
